A study of Mus musculus with 12 samples.

Results

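Open chromatin at 6 h of LPS was compared between macrophages lacking the long noncoding RNA lincRNA-EPS (KO) and wild-type macrophages (WT). The comparison rests on 4 of the 12 ATAC-seq libraries of the series, 2 of KO_6h and 2 of WT_6h. The peaks of these 4 lists on the 19 autosomes were joined into 102083 regions wherever 1 bp or more overlapped, and all 12 lists joined alike give 112047. A region was KO only when called in 2 of 2 KO and 0 of 2 WT libraries, and WT only in the reverse case. The counts of one-sided regions were set beside those of the mixed pairings, in which a KO and a WT library stand together against the other two.

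KO_6h macrophages came from female C57BL/6 mice carrying the lincRNA-EPS knockout, and WT_6h macrophages from female C57BL/6 wild-type mice. Marrow cells of both were cultured for 9 days with 20% L929 supplement, a source of macrophage growth factor, then given LPS at 100 ng/ml for 6 h. The other 8 libraries, 2 each of KO_0h, WT_0h, KO_2h and WT_2h, were grown alike and serve below as samples that had no part in choosing the regions. Each transposition reaction started from 50000 cells. Nothing in the labels ties the 2 libraries of a group to different animals or cultures. A p-value here therefore reflects spread among libraries only, and that spread may be technical. Inside the deposited lists of the libraries labelled 2 h, the peak names give 1 h, and the labels were followed.

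LPS, a component of the outer membrane of Gram-negative bacteria, is sensed by macrophages through the receptor TLR4. The signal activates NF-kB, AP-1 and interferon regulatory factors, which bind enhancers and promoters of inflammatory and interferon-response genes, many of them already held open by the macrophage factor PU.1. LincRNA-EPS, first described as a survival factor of red cell precursors, is known in macrophages as a repressor of immune genes. In ATAC-seq the transposase Tn5 cuts DNA that nucleosomes leave free, so a peak marks an open promoter, enhancer or other regulatory site. Positions are those of the mouse build mm9. Gene annotation and sequence of that build were not used here, so regions are named by position alone.

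The 4 lists at 6 h were of similar size. On the autosomes KO replicate 1 held 89180 peaks and KO replicate 2 held 76685, against 79524 in WT replicate 1 and 82845 in WT replicate 2. The KO libraries thus lay on either side of both WT libraries. The mean was 82932.5 ± 8835 peaks in KO and 81184.5 ± 2348 in WT (SD, n = 2 each). The difference of 1748 peaks had an exact two-sided permutation p = 1, in a design whose smallest possible p is 0.333. Background coverage recovered from the deposited values was 3.35 and 2.17 reads in KO and 2.67 and 2.18 reads in WT, and the lowest was 64.9% of the highest. Pairs of libraries shared 74.9% to 76.8% of the regions called by either. The KO pair had the lowest value, 74.9%, the WT pair stood at 76.4%, and the 4 pairs of a KO with a WT library ran from 75.5% to 76.8%.

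In the deposited lists, knockout and wild type differed at 6 h in about as many called regions as did mixed pairs of the same libraries. All 4 libraries called 61746 of the 102083 regions (60.5%). KO only held 2195 regions (2.15%) and WT only held 1350 (1.32%), 3545 in all. When replicates 1 were set against replicates 2, regions called by KO replicate 1 and WT replicate 1 alone numbered 2622 (2.57%), and those called by KO replicate 2 and WT replicate 2 alone numbered 917 (0.898%). That made 3539 in all. KO replicate 1 and WT replicate 2 alone called 3383 regions (3.31%), and KO replicate 2 and WT replicate 1 alone called 667 (0.653%), which made 4050. In these lists of unequal size, both mixed counts that include KO replicate 1 exceeded the KO-only count. That library had the most peaks and the highest background coverage.

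The excess of KO-only over WT-only regions moved with list size and threshold. KO only made up 61.9% of the one-sided regions in the deposited lists. It made up 55.4% (2012 against 1621) in lists thinned at random to the lowest background coverage of the 4. With the strongest 76685 peaks of each list, the share was 51.8% (1816 against 1687). Stricter thresholds raised it, to 67.5% with a −log10 q of 5 or more and to 68.9% with 10 or more. In thinned lists the total for genotype was 3633, between the mixed totals of 3356 and 3890. With equal numbers of peaks it was 3503, above the mixed totals of 3142 and 3143. There the KO-only count of 1816 was above each mixed count (1410 to 1733). The WT-only count of 1687 lay within their range. These counts were not tested.

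**Figure D1:**
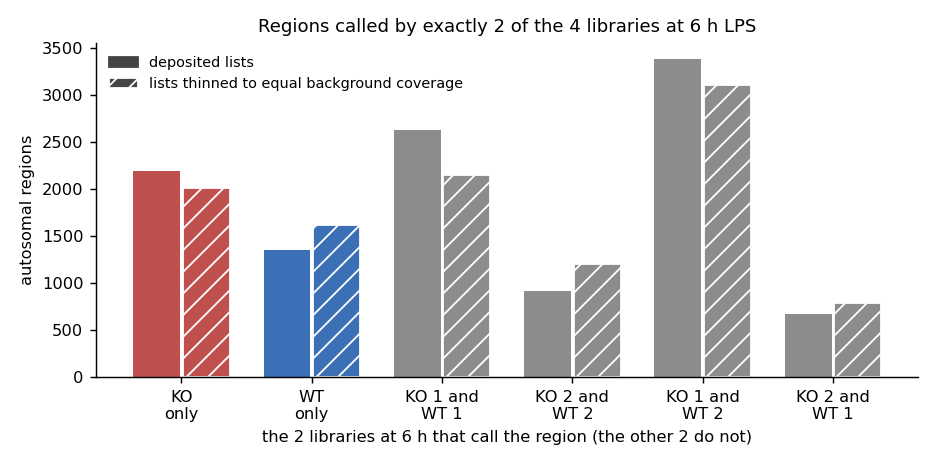
Number of autosomal regions called by exactly 2 of the 4 libraries at 6 h LPS, for each of the 6 pairs that can be formed. Solid bars are the deposited lists and hatched bars the lists thinned to equal background coverage. The KO-only bar (2195 deposited, 2012 thinned) and the WT-only bar (1350, 1621) lie within the range of the grey bars of mixed pairs (667 to 3383, 784 to 3106). With equal numbers of peaks, not drawn, KO only (1816) lies above the mixed range of 1410 to 1733 and WT only (1687) within it.

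Many regions missed the one-sided classes by 1 library. KO libraries called 5499 regions 2 of 2 beside 1 of 2 WT libraries, and the reverse class, 1 of 2 KO and 2 of 2 WT, held 5600. A further 10026 regions were called in 1 KO library alone and 8078 in 1 WT library alone. KO replicate 1 accounted for 7517 of these and KO replicate 2 for 2509, against 3649 for WT replicate 1 and 4429 for WT replicate 2.

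One-sided regions were narrow and weak. The strength of a region was taken as the percentile of its strongest peak, by −log10 q, among the autosomal peaks of the same list. This and the fold of summit over local background are the peak caller's own values for each peak, used only to describe and rank within a list. The median width was 334 bp for KO-only and 327 bp for WT-only regions, against 621 bp for regions of all 4 libraries. The median of the mean percentile over the calling libraries was 16.2 for KO only and 14.8 for WT only, and 61.1 for regions of all 4. The mixed sets had medians of 13.4 to 16.9. By these measures the one-sided regions of the genotypes resembled those of the mixed pairs, and no test was made.

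The upper end of the 2 sets differed. The strongest KO-only region had a mean percentile of 50.3 and the strongest WT-only region 92.1. The strongest of the mixed sets reached 45.6 to 53.7. Over the 60th percentile there were 0 KO-only regions, 4 WT-only regions and 0 regions in each of the 4 mixed sets. Over the 30th percentile the counts were 189 of 2195 KO-only regions (8.61%) and 99 of 1350 WT-only regions (7.33%), and the mixed sets had 3.75% to 10.52%.

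**Figure D2:**
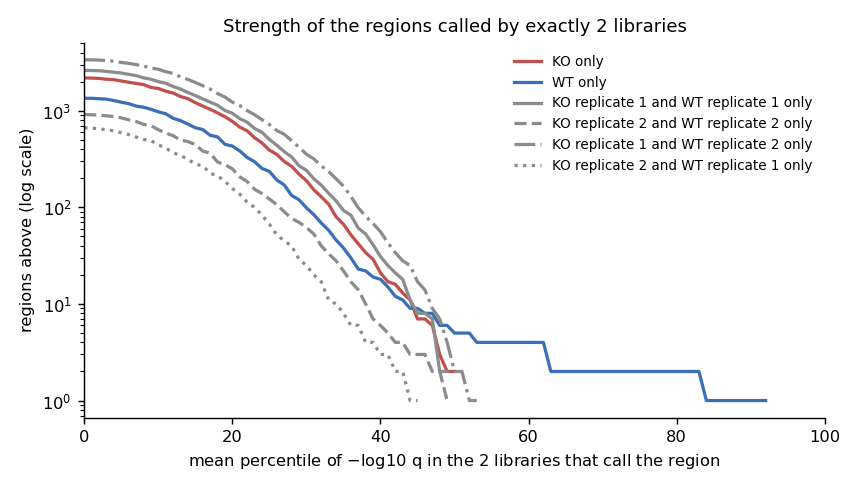
Number of regions (log scale) whose mean percentile of −log10 q in the 2 calling libraries lies above the value on the horizontal axis, for KO-only (red), WT-only (blue) and the mixed sets (grey). The blue curve alone continues past the 60th percentile, where it counts 4 WT-only regions, up to a highest value of 92.1, against 50.3 for KO only.

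KO-only regions lay at a median distance of 5428 bp from the nearest region of all 4 libraries, and WT-only regions at 7915.5 bp. Within 1000 bp of such a region were 17.5% of KO-only and 12.9% of WT-only regions. Mixed sets with KO replicate 1 had medians of 5192.5 and 5782 bp (18.7% and 16.6% within 1000 bp). Those with KO replicate 2 had 7757 and 7726 bp (13.1% and 13.2%). On both measures KO only lay within the range of the mixed sets and WT only just outside it. Every autosome held both kinds. The share of a chromosome's regions that were KO only ran from 1.84% on chromosome 8 to 2.59% on chromosome 11, and the WT-only share from 0.995% on chromosome 10 to 1.75% on chromosome 3. Chromosome 4, which carries the lincRNA-EPS gene, held 134 KO-only regions among its 5932 (2.26%) and 76 WT-only regions (1.28%). The deletion itself was not located here, and no position of the gene in mm9 was used.

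The 12 strongest KO-only regions had mean percentiles of 43.8 to 50.3 and widths of 330 to 982 bp. The first, chr11:107442553-107442972, stood at the 52.9 and 47.7 percentiles in the KO libraries, with folds of 7.59 and 7.36 and summits of 32 and 23 reads. It was called in 0 of the 8 libraries at 0 and 2 h. So were chr14:48101993-48102322, at 37.2 and 51.5, and chr19:3962365-3962944, at 48.6 and 39.0. These 3 were therefore seen in KO libraries at 6 h alone.

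The other 9 had also been called at an earlier time. The second region, chr2:127523894-127524356, stood at the 34.5 and 66.1 percentiles in KO at 6 h. It was called in 3 of 4 KO and 4 of 4 WT libraries at 0 and 2 h, so its absence from WT was seen at 6 h alone. The eleventh, chr2:29437980-29438330, had the same 3 of 4 KO and 4 of 4 WT calls, and chr16:36675392-36675771 had 3 of 4 and 3 of 4. At chr17:6475638-6476619 the earlier calls leaned to the knockout, with 4 of 4 KO libraries and 1 of 4 WT libraries. Its percentiles in KO were 18.3 and 43.4 at 0 h, 46.4 and 42.3 at 2 h and 40.4 and 48.3 at 6 h and its single WT call was in replicate 1 at 0 h.

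The remaining 5 of the 12 had 1 to 3 KO calls and up to 2 WT calls at 0 and 2 h. They were chr13:51966450-51966938 with 1 KO and 1 WT call, chr18:36058864-36059373 with 3 KO and 1 WT call, and chr11:49757411-49757760 with 3 KO and 2 WT calls. At chr11:80622046-80622413 there was 1 KO and no WT call. At chr4:108838107-108838498, on the chromosome of the deleted gene, there were 2 KO and 1 WT calls. In all, 8 of the 12 were called in at least 1 WT library at 0 or 2 h, and 0 of the 12 in 4 of 4 KO and 0 of 4 WT libraries.

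Among the 12 strongest WT-only regions, 4 were called in all 4 WT libraries at 0 and 2 h and in 0 of 4 KO libraries, and these were also the 4 highest. The first was chr5:110425098-110426057, 960 bp wide. No KO library called it at any time. Its percentiles in WT were 91.5 and 91.7 at 0 h, 91.2 and 91.8 at 2 h and 89.6 and 94.5 at 6 h. Its folds at 6 h were 10.2 and 12.1, with 80 and 91 reads at the summit. For scale, the KO lists at 6 h contain peaks down to 12 and 9 summit reads.

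The second, chr6:144865560-144866103, was likewise called in 0 of 6 KO libraries. Its WT percentiles were 79.0 and 80.4 at 0 h, 85.4 and 75.3 at 2 h and 82.5 and 84.9 at 6 h, with folds of 11.7 and 12.4 at 6 h. Both regions held nearly the same place in all 6 WT lists, so they were already one-sided before LPS.

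The third and the fourth varied more between WT libraries. The third, chr8:115450696-115451182, stood at 73.9 and 15.6 at 0 h, 60.7 and 35.1 at 2 h and 68.6 and 56.6 at 6 h. Its place in the list of replicate 1 was the higher one each time. The fourth, chr14:70041749-70042432, stood at 21.5 and 1.19 at 0 h, 23.4 and 17.9 at 2 h and 56.3 and 68.7 at 6 h. In this region both WT libraries at 6 h ranked above all 4 at earlier times, within lists of different lengths.

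The next 8 WT-only regions had mean percentiles of 42.5 to 52.8 at 6 h and 6 of them had a KO call at 0 or 2 h. The first, chr2:108433708-108434137, had 1 KO and 2 WT calls among 4 libraries each at 0 and 2 h. chr13:40232431-40232846 had 2 KO and 3 WT calls. chr12:96730048-96730582 had no call in any of the 8, and chr8:115395810-115396240 had no KO and 2 WT calls. chr12:109398094-109398462 had 1 KO and no WT call. chr4:101717602-101718140 and chr15:101429566-101429926 each had 1 KO and 2 WT calls, and chr8:35825154-35825463 had 2 KO and 4 WT calls. The last of these had a high local background, 17.9 and 15.6 reads in WT at 6 h, and folds of only 3.48 and 3.19.

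A further 6 WT-only regions of lower strength also had 4 of 4 WT and 0 of 4 KO calls at 0 and 2 h. They were chr13:88802258-88802753, chr8:126156943-126157297, chr6:3376918-3377538, chr18:60765727-60766027, chr14:70079111-70079404 and chr19:45298592-45298939, with mean percentiles of 7.46 to 39.98 at 6 h. In total 10 of the 1350 WT-only regions (0.741%) had this history. The opposite history, 4 of 4 KO and 0 of 4 WT calls at 0 and 2 h, was found at 1 WT-only region. Of the 2195 KO-only regions, 0 were called in all 4 KO and 0 of 4 WT libraries at the earlier times, and 4 (0.182%) in all 4 WT and 0 of 4 KO libraries. In the 4 mixed sets 9, 2, 6 and 0 regions (0.343%, 0.218%, 0.177% and 0%) had 4 WT and no KO calls, and 0, 0, 1 and 0 had 4 KO and no WT calls. Among regions of all 4 libraries at 6 h, 48 (0.0777%) had 4 WT and no KO calls, and 7 had 4 KO and no WT calls. These shares were not tested against each other. Background coverage at 0 h was 1.77 and 1.43 reads in KO and 2.35 and 2.51 in WT. The part of depth in these counts was not tested. All 12 KO-only and 18 WT-only regions named here kept their calls in the thinned lists. Thinning only removes peaks, so it could not add a call on the other side and does not bear on the absences.

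**Figure D3:**
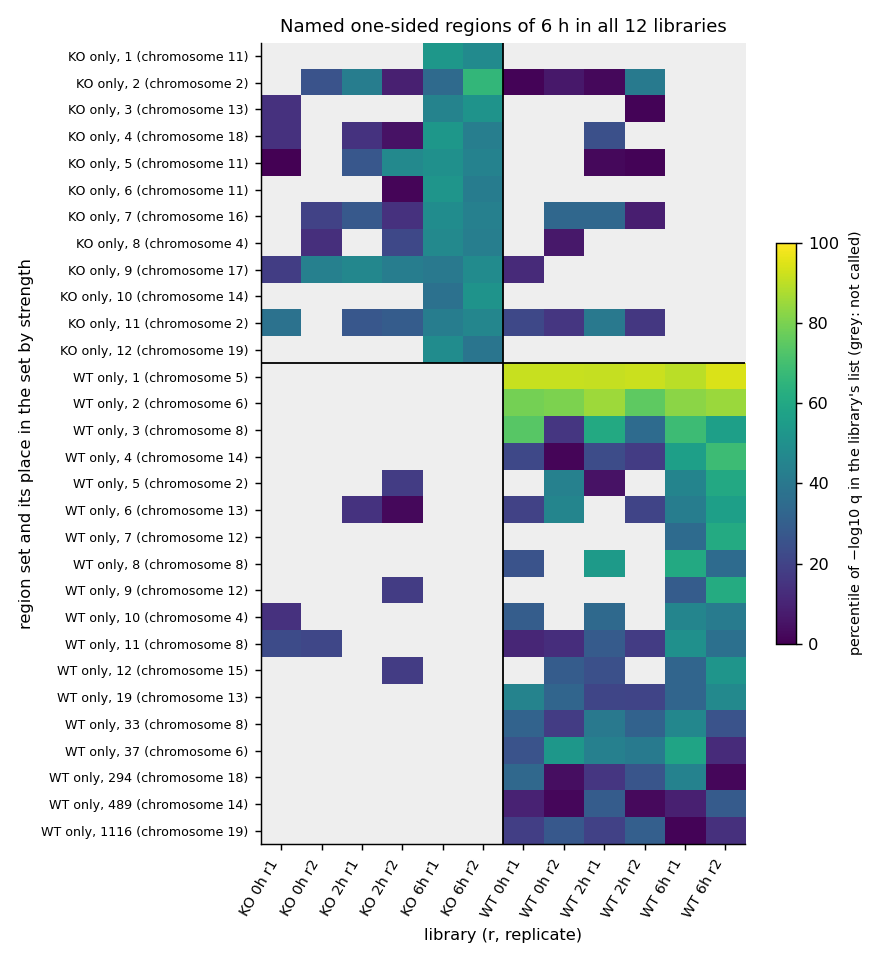
Percentile of −log10 q (colour, 0 to 100, grey where not called) of the 12 strongest KO-only and 18 named WT-only regions of 6 h in each of the 12 libraries. The WT-only regions on chromosomes 5 and 6 are bright in all 6 WT libraries and grey in all 6 KO libraries, while 8 of the 12 KO-only rows carry at least 1 WT call at 0 or 2 h.

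Some regions around the 4 strongest WT-only regions were called in the knockout on chromosomes 5, 6 and 14. On chromosome 5, KO and WT libraries alike called the regions whose centres lie at −72973 bp (percentiles of 90.2 to 94.2 in KO and 85.7 to 95.9 in WT) and at 61446 bp from the WT-only region. A region at 17216 bp was also called in all 12. The region chr5:110376147-110376453, at −49278 bp, had no KO call and 3 WT calls, at percentiles of 6.95 to 16.8. At chr5:110429370-110429797, at 4006 bp, KO libraries at 6 h stood at 60.9 and 69.4, against 34.3 in WT replicate 1 and no call in WT replicate 2. At the earlier times that region was called in 1 library, KO replicate 1 at 2 h. At 6 h the genotypes thus differed in opposite directions at these neighbouring regions. The 200 kb on either side held 21 regions over all 12 lists, 11 of them called in all 12 libraries, and this neighbour was picked after the data were seen.

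A like pair lay on chromosome 6, where the same window held 38 regions, 6 of them called in all 12 libraries. The region chr6:144850416-144851861, centred at −14694 bp from the WT-only region, was called in all 12 libraries, at percentiles of 95.2 to 99.3. To the right, 16.1 kb away, chr6:144882207-144882765 was called in all 4 libraries at 6 h, at the 91.3 and 82.2 percentiles in KO and the 46.9 and 54.0 percentiles in WT. Its folds were 16.6 and 13.9 in KO and 6.54 and 7.88 in WT, with 71 and 43 summit reads in KO and 27 and 28 in WT. At 2 h it was called in both KO libraries, at 52.8 and 72.4, and in 0 of 2 WT libraries. At 0 h it was called in 0 of 4.

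On chromosome 14 the regions at −12670 and 65086 bp were called in all 12 libraries. Between them at 6 h lay an unbroken stretch of WT calls, described next. On chromosome 8 the 200 kb on either side held 11 regions over all 12 lists, and none of them was called in a KO library.

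**Figure D4:**
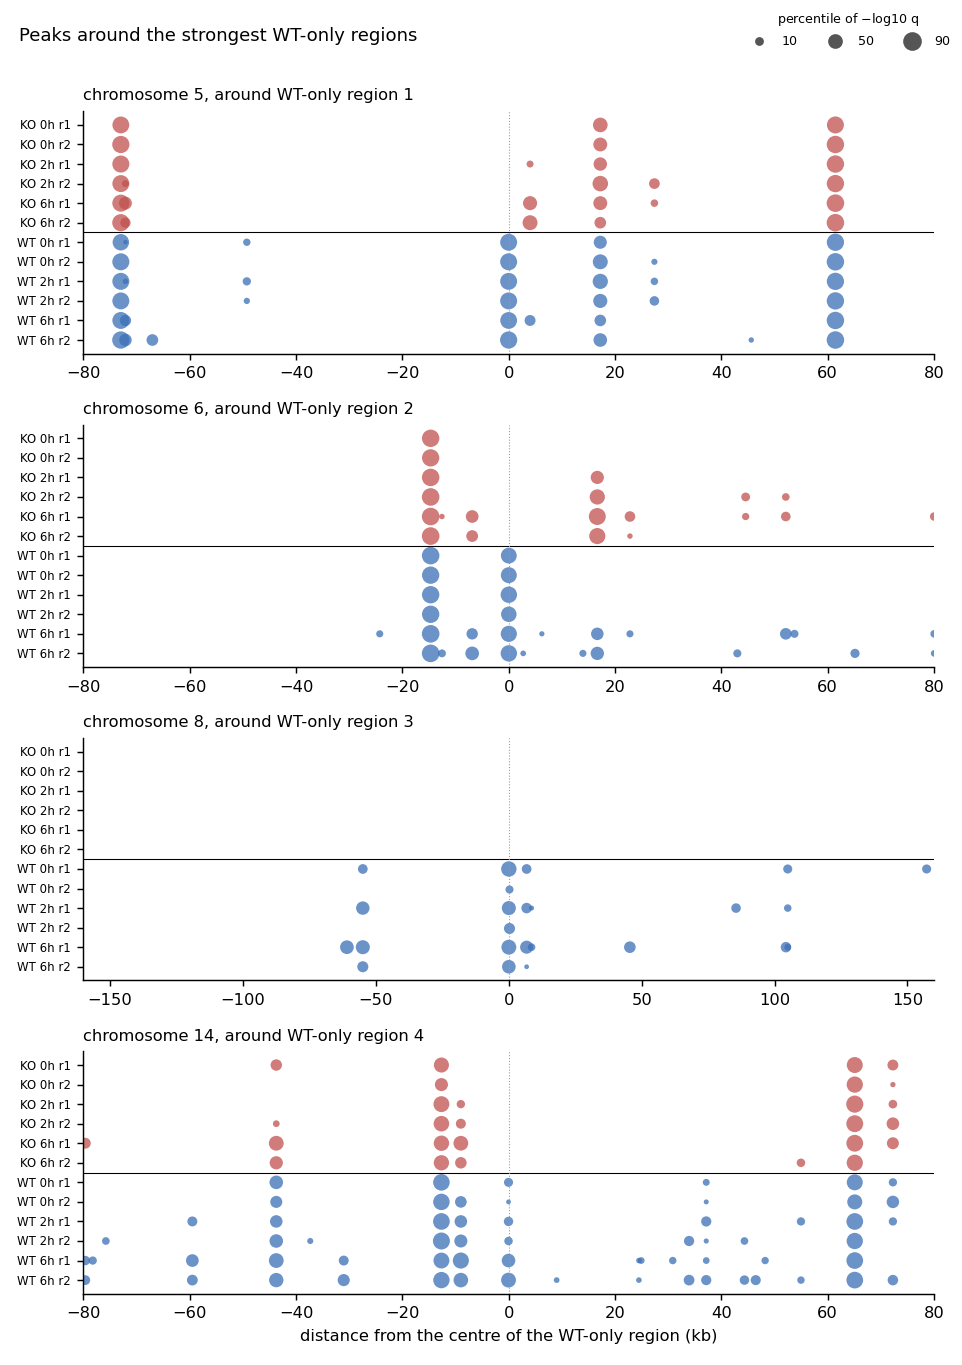
Peaks around the 4 strongest WT-only regions in all 12 libraries, KO (red) above WT (blue). The horizontal axis gives the distance in kb from the centre of the region, and point size the percentile of −log10 q. KO rows are empty at the centre of each panel, carry some of the flanking peaks on chromosomes 5, 6 and 14, and hold no peak in the chromosome 8 window drawn.

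Stretches of consecutive regions called on one side alone were counted along each chromosome, a measure chosen after the data were seen. A stretch ended at the first region with a call from the other side. The longest stretch called by KO libraries alone held 6 regions, and the longest called by WT libraries alone held 10. In the 4 mixed pairs the longest held 8, 4, 6 and 5. Stretches of 6 or more numbered 2 for KO, 3 for WT and 1, 0, 1 and 0 for the mixed pairs, and both stretches of 9 or more belonged to WT.

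The longest, chr14:70041749-70090466, spanned 48.7 kb and 10 regions, of which 3 were called in both WT libraries at 6 h. It contains the WT-only regions at 70041749 and 70079111, which lie 36.7 kb apart. KO libraries had 0 peaks in it at 0, 2 and 6 h, in all 6 lists. WT libraries had 2 and 2 peaks at 0 h, 2 and 4 at 2 h and 6 and 7 at 6 h. Within 100 kb on its sides the KO libraries had 10 to 16 peaks each and the WT libraries 13 to 18, and the nearest region called in KO at 6 h was 8.34 kb to the left and 6.42 kb to the right. KO libraries thus had peaks on both flanks, but the left flank also held regions with no KO call in any list. Among them were chr14:70010725-70011363, called in both WT libraries at 6 h, and chr14:69982384-69982757, with 3 WT calls. At chr14:70029113-70029728, also on the left, KO percentiles lay below WT at each time, with 73.9 and 73.2 against 79.5 and 84.5 at 6 h. On the right, chr14:70106697-70107657 stood at 89.4 and 83.6 in KO and 88.4 and 88.5 in WT at 6 h.

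The second, chr8:115389656-115620664, spanned 231 kb and 9 regions, of which 3 were called in both WT libraries at 6 h. KO libraries again had 0 peaks in it in all 6 lists. WT replicate 1 had 5, 6 and 9 peaks at 0, 2 and 6 h, and WT replicate 2 had 1, 1 and 3. The nearest region called in KO at 6 h was 568 kb to the left and 49.96 kb to the right. Within 100 kb on its sides KO libraries had 0 to 3 peaks and WT libraries 1 to 3. Over all 12 lists the stretch held 11 regions, 0 of them with a KO call, and the stretch on chromosome 14 held 10, also with none.

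The other 3 long stretches rested mostly on regions called in 1 library at 6 h. The WT stretch chr3:144993614-145170852 held 6 regions, 0 of them called in both WT libraries at 6 h, with 1 WT and 0 KO peaks at 0 and 2 h. The KO stretch chr4:53041296-53119944 held 6 regions, 1 called in both KO libraries, and had 7 KO and 9 WT peaks at 0 and 2 h. The KO stretch chr9:62303004-62398741 had 15 KO and 14 WT peaks at those times. These KO stretches were therefore not one-sided before 6 h. With peaks of −log10 q of 10 or more only, the longest WT stretch held 5 regions, on chromosome 8, and the longest KO stretch 6, on chromosome 2.

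The libraries at 0 and 2 h, which had no part in the choice, gave a further reading of all one-sided regions. The labels do not say whether they share animals or cultures with the libraries at 6 h. Of the 2195 KO-only regions, 841 (38.3%) were called in 0 of these 8 libraries and 82 in 8 of 8. Of the 1350 WT-only regions, 545 (40.4%) were called in 0 of 8 and 46 in 8 of 8. The shares called in 0 of 8 were 33.1% to 45.1% in the mixed sets and 5.25% among regions of all 4 libraries at 6 h. At 0 h alone, 55.5% of KO-only and 58.1% of WT-only regions were called in 0 of 4 libraries, against 51.3% to 63.6% in the mixed sets. The KO-only and WT-only shares lay within the range of the mixed sets in both cases.

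Earlier calls of KO-only regions did not lean to the knockout in number. The KO-only regions had more KO than WT calls at 370 regions, more WT than KO calls at 592 and equal numbers at 1233. For WT-only regions the counts were 207, 406 and 737. More KO than WT calls stood at 16.9% of KO-only and 15.3% of WT-only regions, beside 15.4% to 17.7% in the mixed sets. Background coverage at 0 h was lower in KO, at 1.77 and 1.43 reads, than in WT, at 2.35 and 2.51. Regions of all 4 libraries at 6 h also had more WT than KO calls earlier, 8746 against 4274. The part of depth in these counts was not tested.

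To lessen the weight of depth, the share of KO-only regions called in a library was set against the share of WT-only regions called in that same library. KO libraries at 0 h called 24.4% and 12.5% of the KO-only regions and 20.6% and 11.1% of the WT-only regions. WT libraries at 0 h called 26.0% and 24.3% of the KO-only and 26.1% and 23.6% of the WT-only regions. At 2 h the KO libraries called 32.0% and 33.6% of the KO-only and 27.1% and 29.9% of the WT-only regions. The WT libraries at 2 h called 39.6% and 28.8% of the KO-only and 36.1% and 26.6% of the WT-only regions.

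In the deposited lists the KO-only share exceeded the WT-only share by 3.44 ± 1.45 points in KO libraries and by 1.58 ± 1.58 points in WT libraries (SD, n = 4 each). At 0 h the differences were 3.78 and 1.42 points in KO and −0.0604 and 0.698 in WT. At 2 h they were 4.87 and 3.70 points in KO and 3.49 and 2.20 in WT. Within each time the KO values lay above the WT values. The difference of 1.86 points had an exact two-sided permutation p = 0.0556 with genotype labels exchanged within time, which is the smallest p that these 36 arrangements allow. The same measure was −1.47 points for regions of both replicates 1 minus those of both replicates 2. It was −0.362 points for regions of KO replicate 1 and WT replicate 2 minus those of the other mixed pair. The sign of these mixed values depends on which set is subtracted, so only their size compares with 1.86. In lists thinned to equal background coverage of all 12 libraries these differences were below 0 in all libraries except KO_0h replicate 1. There the KO-only share differed from the WT-only share by 0.659 and −2.29 points in KO and −5.14 and −4.03 in WT at 0 h, and by −2.01 and −1.08 points in KO and −3.68 and −3.95 in WT at 2 h. The KO libraries again lay above the WT libraries within each time, and the difference between the genotypes was 3.02 points (exact permutation p = 0.0556). With a −log10 q of 5 or more it was 2.91 points. This design cannot bring the p below 0.05 in either case. In the deposited lists the difference was 1.31 points without WT_0h replicate 1 (exact permutation p = 0.222) and 2.53 points without KO_0h replicate 2.

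**Figure D5:**
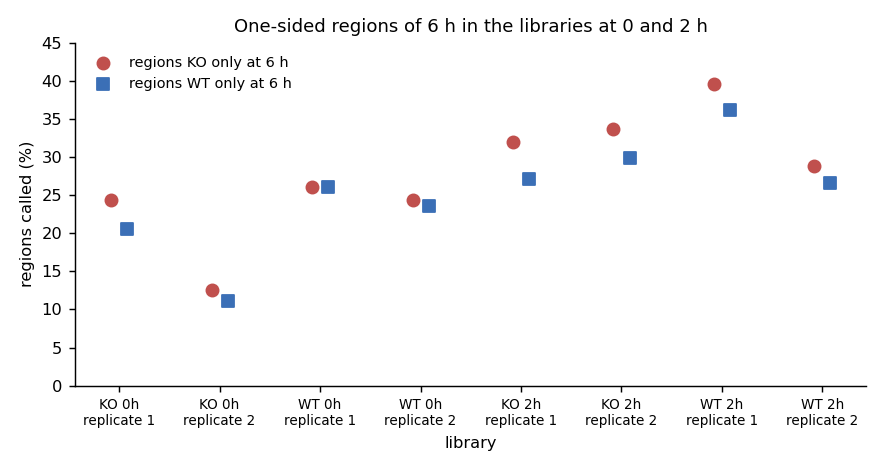
Share (%) of the 2195 KO-only regions (red circles) and the 1350 WT-only regions (blue squares) of 6 h that each library at 0 and 2 h called. The circle lies above the square by 1.42 to 4.87 points in KO libraries and by −0.0604 to 3.49 points in WT libraries, and the shallowest library, KO_0h replicate 2, has the lowest shares.

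Among the 61746 regions called in all 4 libraries, ranks of −log10 q were compared, scaled from 0 to 100 over these regions in each list. Across regions the ranks of 2 libraries correlated at 0.887 to 0.908, with 0.904 for the KO pair and 0.901 for the WT pair. Regions that both KO libraries ranked more than 20 points above both WT libraries numbered 291 (0.471%), and 259 were ranked so in the reverse sense (0.419%). In the mixed pairs the shares were 0.254%, 0.258%, 0.372% and 0.259%. The genotype total of 550 regions was above the mixed totals of 316 and 390. With a gap of 10 points the totals were 3481 for genotype and 2798 and 2980 for the mixed pairs, and with a gap of 30 points they were 50 against 19 and 33. These counts were made after the data were seen and have no test.

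The widest gap with KO above WT was that at chr6:144882207-144882765, described above, with ranks of 87.4 and 78.0 in KO and 32.8 and 39.1 in WT. The next was chr16:50839708-50840223, with ranks of 54.3 and 51.9 in KO and 6.81 and 13.4 in WT. Then came chr18:32644617-32645145, chr16:33531169-33531672 and chr5:91542910-91543392. All 4 of these were called in both genotypes at 2 h.

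The widest gap with WT above KO was at chr4:65998174-65998994, with ranks of 2.098 and 12.5 in KO and 60.8 and 60.4 in WT. It showed the same order of genotypes at the other times. Its percentiles at 0 h were 2.91 in KO replicate 2, with no call in KO replicate 1, and 51.8 and 28.9 in WT. At 2 h they were 5.83 and 8.82 in KO and 72.9 and 50.6 in WT. The following 4 were chr3:151531760-151532379, chr14:76311389-76311942, chr16:57563469-57564021 and chr8:55032485-55033048. The second of these was called in 0 of 8 libraries at 0 and 2 h, and the last in all 8.

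Ranks at the earlier times were compared for those regions that all 12 libraries called. Of the 291 regions higher in KO, 117 were called in all 12 libraries, and KO ranked above WT on average at 55.6% of them at 0 h and 53.0% at 2 h. Of the 259 regions higher in WT, 116 were called in all 12, and KO ranked above WT at 46.6% and 37.1% of them. Over all 41960 regions called in 12 libraries, KO ranked above WT at 50.4% at 0 h and 50.1% at 2 h. The mixed sets covered 50.4% to 58.6% at 0 h and, at 2 h, 40.3% to 56.2%. Only the WT-above-KO set lay outside these ranges, at both times. The median KO minus WT rank was 2.30 points at 0 h and 0.632 at 2 h for the first set, and −1.52 and −2.86 for the second.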

How the data were processed

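ATAC-seq peak lists of 12 libraries, 2 per genotype and time, were used as deposited. The submitters' processing notes name the mm9 build and the tools Bowtie2 2.1.0, Picard and MACS2. For MACS2 settings, duplicate removal and any Tn5 offset correction, details were not given in the sources used here. Uncorrected offsets would shift peak borders slightly, and kept duplicates would raise peak values. Each library had its own peak calling, per the names in the deposited lists. For each peak the authors deposited a score, the fold ratio of summit over local background, and −log10 p-values and q-values, which are the caller's values.

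Read depth is not given. Solving fold and p for a whole-number summit coverage matched the deposited p within 0.001 (log10) for 100% of peaks, and the lowest background in a list served as its background coverage. Intervals do not apply to calls, and a region not called may be open below the calling limit.

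Regions were chained in Python 3.11.15 (numpy 2.4.6, pandas 2.3.3, scipy 1.17.1, with figures in matplotlib 3.10.9). The X chromosome was left out. Named are the 12 regions per direction with the highest mean percentile of −log10 q, plus every one-sided region called in 4 of 4 libraries of its genotype and 0 of 4 of the other at 0 and 2 h. Planned gene lists, cell type markers and motif searches were not used, for want of mm9 annotation and sequence, so the macrophage label was not checked. Peak numbers and the lean at 0 and 2 h were compared by two-sided exact permutation, and 2 against 2 libraries cannot give p below 0.333. Counting was tested on simulated data. Alternatives were stricter q, overlap by 50% of the shorter peak, thinning, equal peak numbers, chaining over 12 lists, the replicate block and each library left out. The comparison and its sets were chosen with earlier results of these data known, and stretches, rank gaps and surroundings after these values were seen.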

Additional observations from a re-analysis of the deposited data

Results flagged for a closer look

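A set of 79 regions (3.599% of the KO-only set) was KO only at 6 h and had the reverse calls at 0 h. In the separate libraries of 0 h they were called in 0 of 2 KO and 2 of 2 WT libraries. Likewise 11 regions (0.815% of the WT-only set) were WT only at 6 h and called in 2 of 2 KO and 0 of 2 WT libraries at 0 h. The difference between the times was not tested for either set. Other regions kept their side, 17 KO only and 60 WT only at both times. In the 4 mixed sets of 6 h, 2.94% to 4.73% of regions were called in WT only at 0 h and 0.109% to 1.2% in KO only at 0 h, so both shares above lay within the range of the mixed sets. KO libraries at 0 h had background coverages of 1.77 and 1.43 reads, against 2.35 and 2.51 in WT, and the part of depth in these counts was not tested.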

How the results depend on the processing

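Joining by 50% of the shorter peak, thinning, equal peak numbers, chaining over 12 lists and a −log10 q of 5 or more kept the counts of one-sided regions within 1.5 times. With a −log10 q of 10 or more, KO only fell to 1455 regions, WT only to 658 and their sum to 2113, beside mixed totals of 2261 and 3078, since fewer peaks enter. With each library left out in turn, KO only ran from 4466 to 9788, WT only from 2209 to 6169 and their sum from 10346 to 11997. A lone library needs 1 call, or 1 absence, where a pair needs 2. The peak number difference of KO minus WT ran from −4499.5, without KO replicate 1, where its sign turned, to 7995.5, without KO replicate 2, and was 434.5 in thinned lists. With genotype labels exchanged within replicate number (the replicate block), the exact permutation p for peak number stayed 1 and that for the lean at 0 and 2 h was 0.125, the smallest it allows with 4 libraries a side. The labels tie no number to an animal, and with 2 pairs at 6 h pairing was not assumed. The lean ran from 1.31 to 2.53 points with each library left out, and was 3.02 in thinned lists and 2.91 at a −log10 q of 5 or more. Exchanging labels freely gave an exact permutation p = 0.143, and joining by 50% gave 0.111. The longest WT stretch moved from 10 to 5 regions at a −log10 q of 10 or more and held 8 to 10 under the other settings chosen after the data were seen, and the longest KO stretch held 5 or 6. Depth limits all absences: background coverage at 6 h differed by up to the ratio of 3.35 to 2.17 reads.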
